A study of Homo sapiens with 2 samples.

Results

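The genes described here are targets of the transcription factor NRF2 and enzymes of antioxidant defence. They were taken by name as 34 genes of the NRF2 pathway and of glutathione, thioredoxin, pentose phosphate and aldo-keto reductase metabolism. Of these, 32 had 1 or more probe sets annotated to them alone, 61 probe sets in all, out of 19775 genes and 54675 probe sets on the array. AKR1B1 and FTH1 were not analysed here. The let-7i group was OECM1, an established cell line of a head and neck cancer, stably transfected with pmCherry-let7i, a vector for the microRNA let-7i. The control group was OECM1 transfected with the pmR-mCherry empty vector. Both cultures thus carried an mCherry vector, and both were grown in RPMI with fetal bovine serum. Each group had 1 Affymetrix array. With no replicate, no difference could be tested and the spread between cultures is unknown. The labels do not say whether each culture was 1 clone or a pool of transfected cells.

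NRF2, encoded by NFE2L2, is held at a low level by KEAP1, an adaptor that hands it to the CUL3 ubiquitin ligase for degradation. When oxidants or electrophiles modify KEAP1, NRF2 accumulates, pairs with a small MAF protein such as MAFG and binds antioxidant response elements in the DNA of its target genes. BACH1 is a repressor that competes for the same elements. The targets make glutathione, reduce thioredoxin, supply NADPH, store iron and reduce quinones and carbonyls. The pathway is often switched on by mutation in squamous cancers.

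The comparison is between cells with and without added let-7i. The mature microRNA is shown because it is the 5p arm of the microRNA that the let-7i vector is labelled to carry, with its seed, bases 2 to 8, in capitals. It lies on the plus strand at chr12:62603691-62603712 of GRCh38.p14, and its sequence is that of RefSeq. The array does not measure it.
hsa-let-7i-5p: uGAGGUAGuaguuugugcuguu

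The antioxidant response element was searched in RefSeq promoter windows (GRCh38.p14, 250 bases before to 50 bases after a gene's start) as the letters TGACNNNGC on either strand. Of 27 of the genes with a window, 10 (37.0%) held a match, against 4384 (16.1%) of all 27305 genes with a window. The genes were picked as NRF2 targets, so this share describes the choice. The 2 promoters below belong to GCLM and TXNRD1, which were both lower in the let-7i culture, and their matches are in capitals. GCLM lies on the minus strand (window chr1:93909381-93909680) and TXNRD1 on the plus strand (window chr12:104215529-104215828). Another TXNRD1 window (chr12:104286782-104287081), not printed, also held 1 match.
GCLM: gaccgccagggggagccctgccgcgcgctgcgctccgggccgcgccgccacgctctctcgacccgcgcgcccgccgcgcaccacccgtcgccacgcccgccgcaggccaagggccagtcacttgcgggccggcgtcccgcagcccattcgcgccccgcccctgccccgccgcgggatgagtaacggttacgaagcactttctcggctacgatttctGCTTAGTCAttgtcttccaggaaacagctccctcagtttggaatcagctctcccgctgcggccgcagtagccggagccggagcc
TXNRD1: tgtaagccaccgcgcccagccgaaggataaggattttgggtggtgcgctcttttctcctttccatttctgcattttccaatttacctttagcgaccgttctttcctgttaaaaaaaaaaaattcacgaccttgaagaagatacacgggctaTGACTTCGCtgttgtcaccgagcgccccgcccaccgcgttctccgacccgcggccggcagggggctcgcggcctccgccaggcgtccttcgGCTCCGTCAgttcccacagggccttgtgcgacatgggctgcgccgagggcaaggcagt

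Matches also stood in promoters of genes with other ratios, shown here with 10 bases on each side. PIR (chrX:15493289-15493317, minus strand) and CBR1 (chr21:36069855-36069883, plus strand) were lower in the let-7i culture, GPX2 (chr14:64942849-64942877, minus strand) was higher, and GSTP1 (chr11:67583736-67583764, plus strand) had nearly equal signals.
PIR: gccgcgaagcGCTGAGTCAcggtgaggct
CBR1: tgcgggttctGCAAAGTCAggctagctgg
GPX2: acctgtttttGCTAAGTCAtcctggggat
GSTP1: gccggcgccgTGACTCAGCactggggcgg
Of the 10 genes with a match, 7 were lower and 3 higher in the let-7i culture. Of 17 genes with a window and no match, 12 were lower and 4 higher, the other being AKR1B1. These counts are by any amount. They take in genes with nearly equal signals, such as PGD and EPHX1 (log2 ratios of -0.03 and 0.01), both with a match. Of the 31 measured genes of the set 67.7% were lower, against 49.8% lower and 48.7% higher among all genes above the signal floor described below. The counts with a match thus describe the set and were not tested against those without. NQO1 and GCLC are among those with no match in the window. A match is a description of the letters and not a binding site.

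No gene of the set that was measured on both arrays was past 2-fold in either direction, and most of the differences were downward. A floor was set at the median signal of all probe sets of an array, 79.5 for let-7i and 88.0 for the empty vector, and 31 of the 32 genes reached it on both arrays. Of these 31, none was at least 2-fold lower, against 1.38% of the 12284 genes on the array that reached it at least once, and none was at least 2-fold higher, against 1.06%. By any amount 21 (67.7%) were lower and 10 higher, against 49.8% lower and 48.7% higher among all genes. The median log2 ratio, let-7i over empty vector, was -0.08, beside -0.01 for all genes, and the values ran from -0.86 for AKR1C2 to 0.52 for GPX2.

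Below 2-fold, 11 genes (35.5%) were at least 1.2-fold lower, against 20.3% of all genes, and 1 (GPX2) was at least 1.2-fold higher, against 16.7%. The 3 lowest, AKR1C2, PIR and AKR1C1, were at least 1.5-fold lower (9.68%, against 5.93%), and none was at least 1.5-fold higher, against 4.18%. With the mean of probe sets AKR1C1 and AKR1C2 were short of 1.5-fold (log2 ratios of -0.37 and -0.53) and PIR was not (-0.81). The noise of a single probe set was estimated from 5807 genes with at least 2 measured probe sets as the SD of the difference between their log2 ratios divided by the square root of 2. By quartile of signal it ran from 0.34 (dimmest) to 0.15 (brightest), and it covers no variation between cultures. In the set 8 genes (25.8%) were lower by over 2 such SDs at their own signal, against 7.20% of the 11140 genes measured on both arrays. They were GCLC, GCLM, GSR, TXNRD1, CBR1, AKR1C1, AKR1C2 and PIR. None was higher by that much, against 6.89%. The limit is smaller for bright genes, while 7.20% and 6.89% are over genes of every signal and not over genes of like signal. The shares of all genes past a fold are over genes of every signal too, and take in 1144 genes that reached the floor on 1 array only. AKR1C1 and AKR1C2 are counted apart, though their bright probe sets can match several transcripts. The 1.2-fold and 2-SD limits were set after the values were seen, and the genes were chosen with earlier results known, so these shares describe the 2 cultures only.

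**Figure D1:**
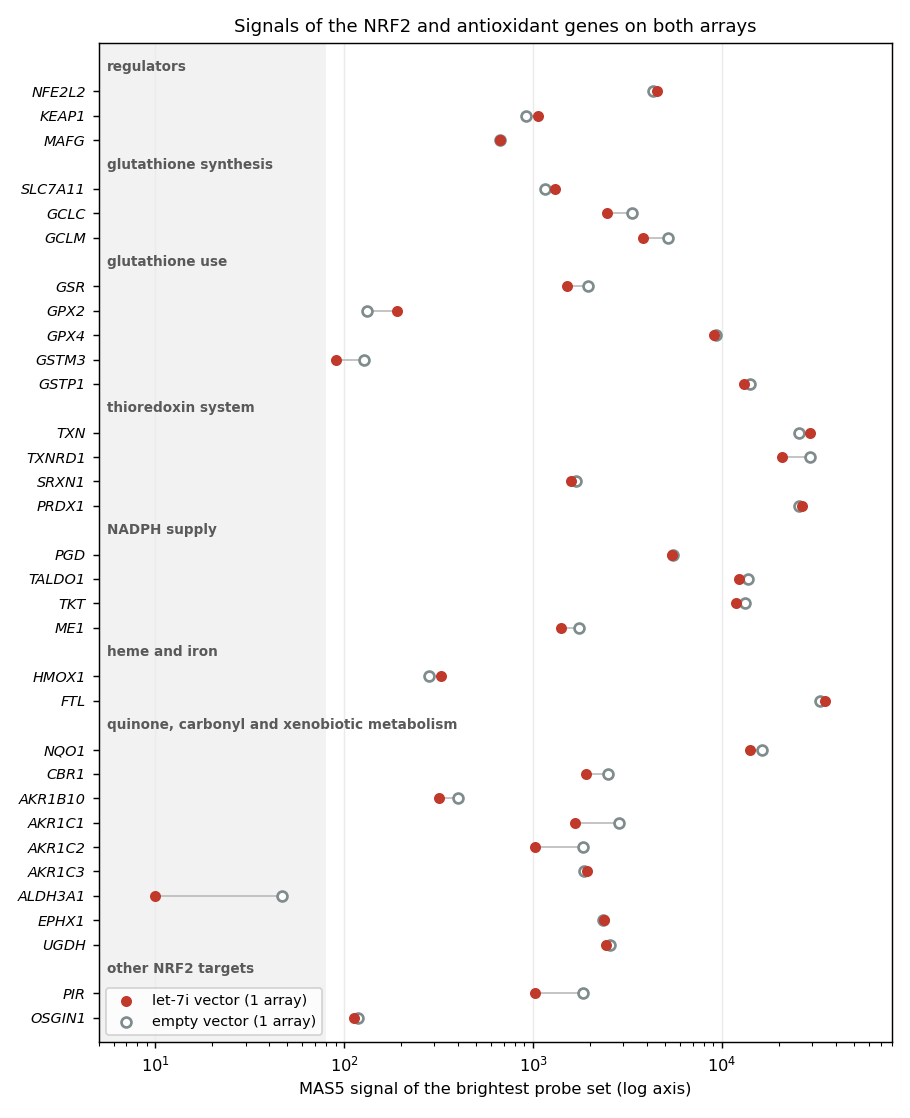
MAS5 signal (log axis) of the brightest probe set of each of the 32 genes, grouped by role, on the let-7i array (filled red) and the empty vector array (open grey), 1 array each. The shaded area is below the let-7i floor of 79.5, where both ALDH3A1 signals lie. The pairs of points nearly coincide for most genes. The red point is visibly to the left for GCLC, GCLM, GSTM3, TXNRD1, AKR1C1, AKR1C2, PIR and ALDH3A1, and to the right for GPX2.

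The regulators within the set, NFE2L2, KEAP1 and MAFG, had nearly equal signals in both cultures. NFE2L2, the gene of NRF2 itself, had a signal of 4512 in the let-7i culture and 4310 in the empty vector culture, a log2 ratio of 0.06, and its second measured probe set gave -0.05. A probe set naming both NFE2L2 and CSNK2A1, not used here, had 423 with let-7i and 541 with the empty vector (-0.36). KEAP1 had signals of 1057 with let-7i and 917 with the empty vector, a log2 ratio of 0.20, which is below 1 SD of its probe noise (0.21). MAFG, the small MAF partner, had 665 with let-7i and 667 with the empty vector, and its 2 probe sets gave log2 ratios of -0.18 and -0.01. These are transcript levels. NRF2 is controlled mostly through protein stability, which the array does not measure.

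BACH1, the competing repressor, was higher with let-7i. Its signal was 1175 in the let-7i culture and 637 in the empty vector culture, a 1.84-fold higher level in its 1 measured probe set. Of the genes measured on both arrays, 98.7% had a lower ratio. HMOX1, heme oxygenase 1 and the best-known gene under BACH1 repression, had signals of 324 with let-7i and 282 with the empty vector, a log2 ratio of 0.19 against a probe noise SD of 0.34. NFE2L1, a relative of NRF2, had log2 ratios between 0.06 and 0.16 in 3 probe sets. SQSTM1, a KEAP1-binding autophagy adaptor and NRF2 target, had signals of 7461 with let-7i and 6805 with the empty vector in its brightest probe set. Its 5 measured probe sets ranged from -0.002 to 0.87, and their mean, centred anew, was 0.33.

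The genes of glutathione synthesis split between the enzyme and the transporter. Glutamate-cysteine ligase, the rate-limiting enzyme of glutathione synthesis, was lower with let-7i in both of its subunits. GCLC, the catalytic subunit, had a signal of 2472 in the let-7i culture and 3333 in the empty vector culture, a 1.35-fold lower level. Its 3 measured probe sets gave log2 ratios from -0.44 to -0.28. GCLM, the modifier subunit, had 3819 with let-7i and 5150 with the empty vector, also 1.35-fold lower, and its 3 probe sets gave log2 ratios from -0.49 to -0.34. All 6 probe sets of the ligase were thus lower. SLC7A11, the cystine transporter that feeds this pathway, was on the other side, with signals of 1309 with let-7i and 1152 with the empty vector. Its 3 probe sets were all higher, with log2 ratios from 0.13 to 0.41. The brightest gave 0.18, which is below 1 SD of its probe noise (0.21). SLC3A2, the partner chain of that transporter, had 2856 with let-7i and 2490 with the empty vector (0.19, within 2 SDs of the probe noise).

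Of the genes that use glutathione, the reductase was lower and the bright peroxidase and transferase were nearly level. GSR, glutathione reductase, had a signal of 1514 in the let-7i culture and 1961 in the empty vector culture, a 1.30-fold lower level, and its 2 probe sets gave log2 ratios of -0.59 and -0.38. GPX4, which reduces lipid peroxides, had 9120 with let-7i and 9286 with the empty vector. GSTP1, the main glutathione transferase of many epithelial tumours, had 13025 with let-7i and 14076 with the empty vector, a log2 ratio of -0.12. The other 2 genes were dim. GPX2, an epithelial glutathione peroxidase, had 191 with let-7i and 133 with the empty vector, the highest ratio of the set (log2 ratio of 0.52), and GSTM3, another transferase, had 90.0 with let-7i and 128 with the empty vector, a log2 ratio of -0.51. Both are within 2 SDs of the probe noise at such signals (0.34), and both were below a floor at the 65th percentile on both arrays.

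**Figure D2:**
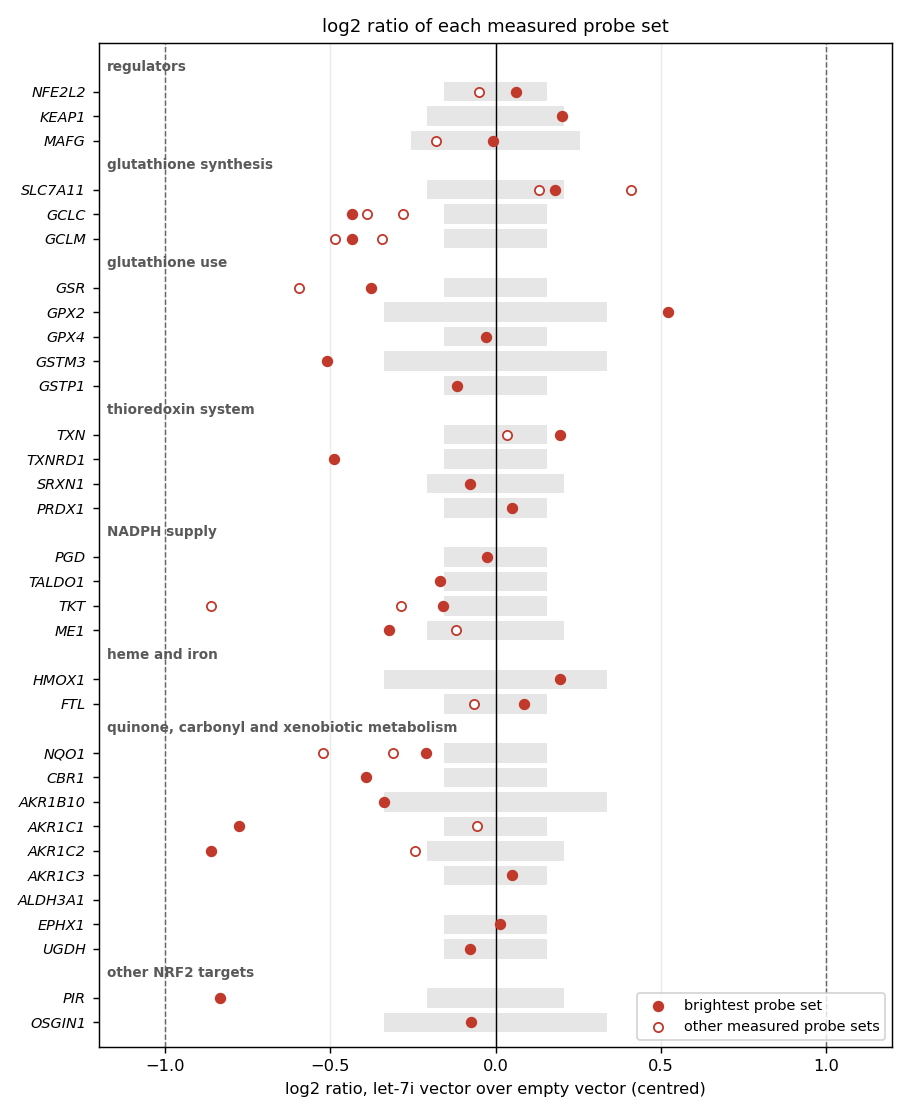
log2 ratio (let-7i vector over empty vector, centred) of each probe set at or above the floor on both arrays, by gene and role; filled points are the brightest probe set of a gene and open points the others. Grey bars span 1 SD of the probe noise on either side of 0 at the signal of the gene, and dashed lines mark 2-fold. All points of GCLC, GCLM, GSR and NQO1 lie to the left of the bars, and those of AKR1C1, AKR1C2 and TKT are spread.

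In the thioredoxin system only the reductase was past 2 SDs of the probe noise. TXNRD1, cytosolic thioredoxin reductase, had a signal of 20848 in the let-7i culture and 29167 in the empty vector culture, a 1.40-fold lower level in its 1 measured probe set, and 7.60% of the genes measured on both arrays had a lower ratio. Its substrate TXN, thioredoxin, had 29365 with let-7i and 25594 with the empty vector, a log2 ratio of 0.19, and 0.04 in its second probe set. PRDX1, a peroxiredoxin, had 26651 with let-7i and 25685 with the empty vector, and SRXN1, the sulfiredoxin that repairs peroxiredoxins, had 1596 with let-7i and 1679 with the empty vector.

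None of the 4 genes of NADPH supply differed by over 2 SDs of the probe noise in its brightest probe set, and all 4 log2 ratios were below 0 (49.8% of all genes were lower by any amount). TALDO1, transaldolase, had 12241 in the let-7i culture and 13724 in the empty vector culture, a log2 ratio of -0.17. PGD, 6-phosphogluconate dehydrogenase, had 5424 with let-7i and 5510 with the empty vector, a log2 ratio of -0.03. ME1, cytosolic malic enzyme, had 1413 with let-7i and 1761 with the empty vector, a log2 ratio of -0.32, but its other measured probe set, whose ID marks no sharing with other transcripts, gave -0.12. TKT, transketolase, depended on the probe set. The brightest had 11840 with let-7i and 13174 with the empty vector (log2 ratio of -0.16), a second gave -0.29, and the dimmest had 636 with let-7i and 1151 with the empty vector (-0.86).

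FTL, the light chain of the iron store ferritin, had 34986 in the let-7i culture and 32890 in the empty vector culture. Its 2 probe sets gave log2 ratios of 0.09 and -0.07, so that the ferritin transcript showed no direction.

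Several enzymes of quinone and carbonyl reduction were lower with let-7i, and some of them rest on probe sets that disagree. NQO1, the quinone reductase that is the standard readout of NRF2 activity, had a signal of 14055 in the let-7i culture and 16235 in the empty vector culture in its brightest probe set. A second probe set had 7534 with let-7i and 10796 with the empty vector. The third had 6233 with let-7i and 7705 with the empty vector. All 3 were lower, with log2 ratios of -0.21, -0.52 and -0.31, which is 1.16-fold to 1.44-fold. The brightest is within 2 SDs of the probe noise. All 3 are of the kind that can match several transcripts, so NQO1 has no value without such probe sets. CBR1, a carbonyl reductase, had 1895 with let-7i and 2481 with the empty vector, a 1.31-fold lower level in its 1 probe set. AKR1B10, an aldo-keto reductase that also reduces retinal, had 318 with let-7i and 400 with the empty vector, a log2 ratio of -0.34 that equals 1 SD of the probe noise at that signal.

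AKR1C1 and AKR1C2 are near-identical hydroxysteroid dehydrogenases, and their bright probe sets are of the kind that can match several transcripts. AKR1C1 had 1667 in the let-7i culture and 2848 in the empty vector culture, a 1.71-fold lower level, while its next probe set had 1466 with let-7i and 1521 with the empty vector (log2 ratio of -0.06). AKR1C2 had 1018 with let-7i and 1843 with the empty vector, 1.81-fold lower, while its next had 1130 with let-7i and 1334 with the empty vector (log2 ratio of -0.24). Averaged over probe sets and centred anew, the log2 ratios were -0.37 and -0.53. The AKR1C1 average takes in another probe set, with 66.3 with let-7i, raised to the floor, and 102 with the empty vector. A probe set naming both genes, not used here, had 63.6 with let-7i, below the floor, and 153 with the empty vector. The level of each of these genes is therefore uncertain. AKR1C3, a close relative with a probe set of its own, had 1938 with let-7i and 1869 with the empty vector, a log2 ratio of 0.05.

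The remaining enzymes of this role were level or dim. EPHX1, microsomal epoxide hydrolase, had 2379 in the let-7i culture and 2351 in the empty vector culture, and UGDH, which makes UDP-glucuronate, had 2434 with let-7i and 2563 with the empty vector. ALDH3A1, an aldehyde dehydrogenase, reached the floor on neither array, with 9.94 for let-7i and 46.5 for the empty vector, so it has no fold here. With the floor at percentile 25 it was at least 2.43-fold lower with let-7i. That bound rests on signals for which no probe noise was estimated, and those signals may be background.

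PIR, an iron-binding nuclear protein known as an NRF2 target, was among the lowest of the set. Its signal was 1030 in the let-7i culture and 1831 in the empty vector culture, a 1.78-fold lower level in its 1 probe set, beyond 2 SDs of the probe noise. That probe set is of the kind that can match several transcripts, so PIR has no value without such probe sets. Only 1.95% of the genes measured on both arrays had a lower ratio. OSGIN1, a stress-induced growth inhibitor, was close to the floor with signals of 113 with let-7i and 118 with the empty vector.

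Genes with several probe sets give a check within each array. Of 13 genes of the set with at least 2 measured probe sets, 9 had all of them lower with let-7i, against 27.8% of all 5807 such genes, and 2 (SLC7A11 and TXN) had all of them higher, against 23.2%. The other 2 were NFE2L2 and FTL. Probe sets of a gene share the RNA of the culture, so they do not replicate the comparison.

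A wider list of 85 other genes of antioxidant defence was set beside these, of which 66 were above the floor. It had 30 genes lower and 35 higher with let-7i, against 49.8% lower and 48.7% higher among all genes. In it 2 were at least 2-fold higher (1.06% of all genes) and none at least 2-fold lower (1.38% of all genes), and the median log2 ratio was 0.06, or 0.021 without probe sets shared between transcripts. ABCC4, an efflux pump, had 348 in the let-7i culture and 148 in the empty vector culture, 2.34-fold higher. MSRB3, a methionine sulfoxide reductase, had 434 with let-7i and 210 with the empty vector, 2.07-fold higher, and its other measured probe set gave a log2 ratio of 0.37. Neither passed 2-fold once the floor was raised to the 65th percentile. IDH1, the cytosolic NADPH-producing isocitrate dehydrogenase, had 5441 with let-7i and 10822 with the empty vector, 1.99-fold lower, and its second bright probe set had 5208 with let-7i and 10409 with the empty vector. A dim probe set of the gene had 146 with let-7i and 168 with the empty vector (log2 ratio of -0.20). FOSL1, an AP-1 subunit whose dimers bind a sequence that overlaps the antioxidant response element, had 7372 with let-7i and 3953 with the empty vector, 1.86-fold higher. TXNIP, an inhibitor of thioredoxin, had 7724 with let-7i and 9736 with the empty vector, and its 3 probe sets gave log2 ratios from -0.58 to -0.34.

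SLC7A11 is also a target of ATF4, the transcription factor of the amino acid response, so ATF4 and its targets were listed too. Of 20 such genes above the floor 15 were higher with let-7i and 5 lower, against 48.7% and 49.8% of all genes, and none was past 2-fold. The median log2 ratio was 0.15, and 0.076 without probe sets shared between transcripts, which left 12 genes. STC2, a secreted glycoprotein, had 832 in the let-7i culture and 541 in the empty vector culture (log2 ratio of 0.62). SLC7A5, an amino acid transporter, had 2306 with let-7i and 1560 with the empty vector (0.56), and DDIT3, a stress-induced transcription factor, had 465 with let-7i and 325 with the empty vector (0.51). ATF3, another stress-induced factor, ran the other way, with 329 with let-7i and 535 with the empty vector (-0.71), and ATF4 itself had 6069 with let-7i and 7132 with the empty vector (-0.24).

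**Figure D3:**
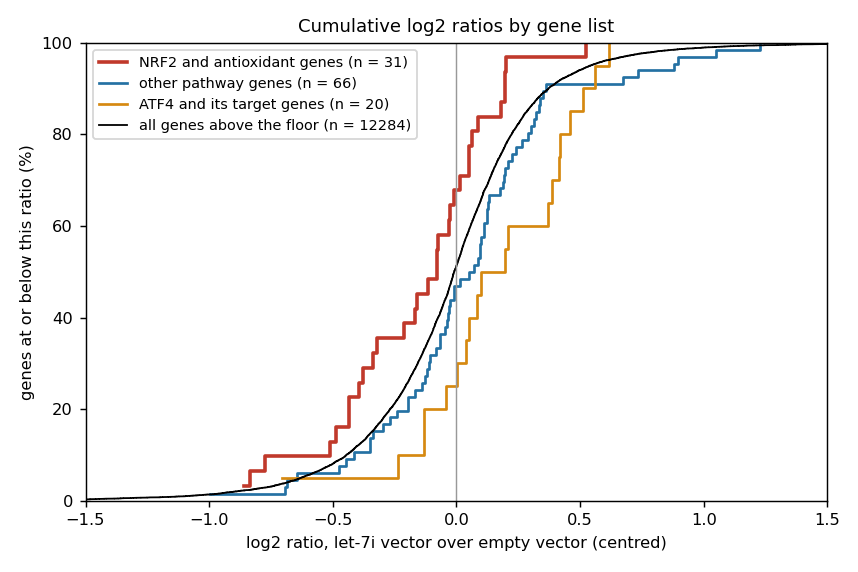
Share of genes (percent, vertical axis) at or below each log2 ratio (let-7i vector over empty vector, horizontal axis) for the 31 NRF2 and antioxidant genes, the 66 other pathway genes, the 20 genes of the ATF4 list and all 12284 genes above the floor. At 50% the red curve of the NRF2 and antioxidant genes is left of that of all genes (median of -0.08, beside -0.01) and the curve of the ATF4 list is right of it (median of 0.15), while at low ratios the curves cross.

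Both cultures were checked for their cell type. Of 9 squamous epithelial markers with a probe set of their own, 6 were above the floor on both arrays, SFN, DSP, CDH1, EPCAM, PERP and DSC3, while KRT5, KRT14 and PKP1 were below it on both. The summed signal of the 9 was 47592 in the let-7i culture and 53565 in the empty vector culture, and EPCAM, an epithelial adhesion protein, was 1.64-fold lower with let-7i. CDH1 (log2 ratio of -0.42) and DSC3 (-0.49) were lower too, while PERP (-0.10), SFN (0.02) and DSP (0.10) were nearly level. KRT6A, KRT17 and TP63, also on the marker list, had no probe set of their own. Of 6 leukocyte, 4 endothelial and 6 fibroblast markers, 1, 1 and 2 were above the floor, with no signal over 415. Of these, DCN, a fibroblast marker, had 322 with let-7i and 163 with the empty vector, and CD3E, a T cell marker, had 90.4 with let-7i and 173 with the empty vector. Only 1 of 7 DCN probe sets was measured on both arrays, and it is of the kind that can match several transcripts. COL1A1 (fibroblast) and PECAM1 (endothelial) had log2 ratios of 0.26 and 0.22 in their brightest probe sets, while 2 other PECAM1 probe sets were lower. Fewer cells of a kind and less RNA per cell cannot be told apart in such a culture, and the part of these markers in the results above was not tested.

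The signs of the ratios were compared across 7 other ways of processing. Of the 31 measured genes 27 kept their sign in all settings that gave a value, 19 of them lower and 8 higher with let-7i. The exceptions were EPHX1, MAFG, OSGIN1 and PRDX1, whose ratios are near 0. All settings use the same 2 arrays, so a kept sign does not replicate the comparison, and the same was not counted over all genes. Without probe sets shared between transcripts, NQO1, PIR, AKR1C2, AKR1B10, TALDO1, FTL and MAFG had no value.

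**Figure D4:**
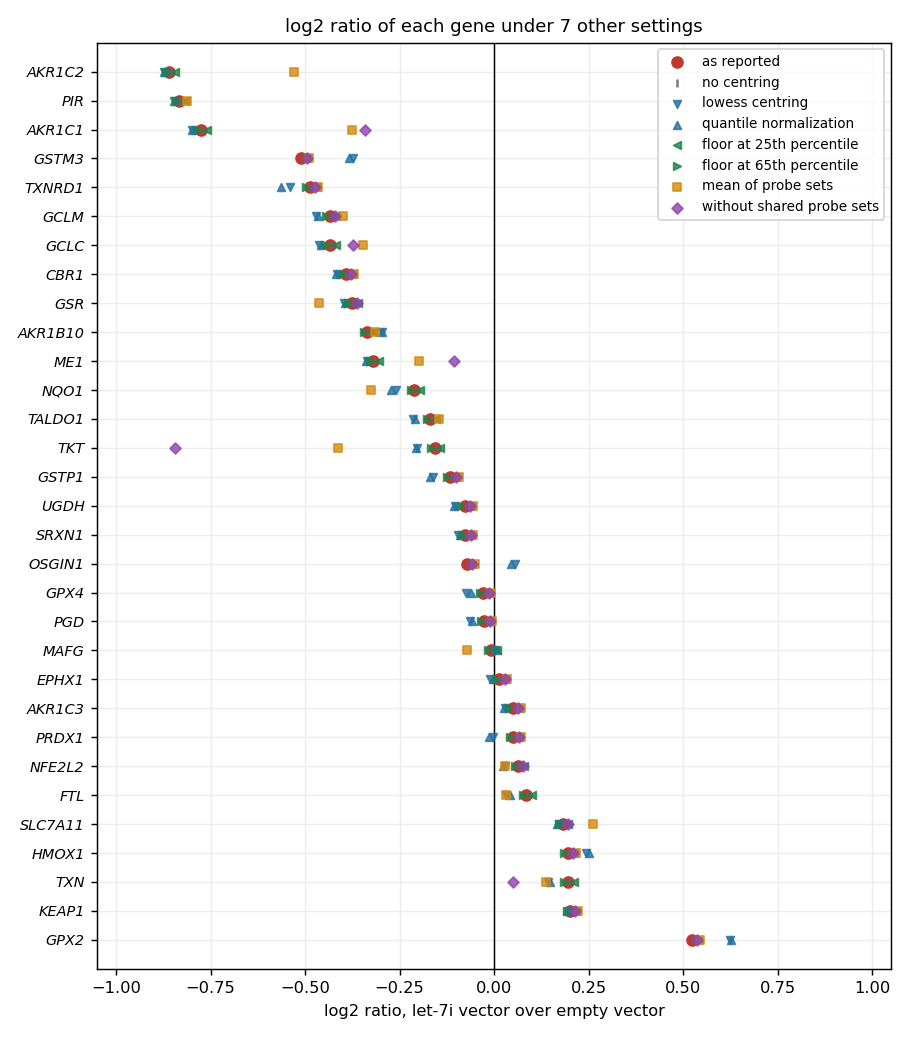
log2 ratio of each of the 31 measured genes (let-7i vector over empty vector, horizontal axis), ordered from lowest to highest, as reported (red) and under 7 other settings (other symbols). The symbols overlap for most genes; AKR1C1, AKR1C2, TKT and ME1 move with the choice of probe set, TKT to -0.85 without probe sets shared between transcripts.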

How the data were processed

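Biotin-labelled cRNA of total RNA from 1 let-7i culture and 1 empty vector culture was hybridised to 1 array each (labelling per the labels' protocols). The authors deposited linear signal intensities from MAS5, the tool named in the submitters' processing notes, with neither version nor detection calls in the sources used here. Of 54675 probe sets, the 41097 with 1 gene symbol in the platform annotation were used. All 61 used for the described genes had the same symbol in RefSeq.

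Each gene took its ratio from its brightest probe set by mean log2 intensity. Signals below an array's 50th percentile were raised to it. The log2 ratio (let-7i over empty vector) was centred on the median of the 11140 genes at or above that floor on both arrays, by 0.0036. Past 2-fold was called. All members with a probe set were named, and of the other lists those past 2-fold, the 4 with the largest absolute ratio of each and a few genes fixed by name, 1 of which is not reported here. The members and lists were chosen with earlier results of these data known. Alternatives were no centring, lowess centring (fraction 0.3), quantile normalization, a floor at percentile 25 or 65, averaging probe sets, leaving out probe sets ending in _s_at or _x_at, thresholds of 1.5-fold and 3-fold, and genes measured on both arrays only. The number of arrays limits the precision. The code (Python 3.11.15 with pandas 2.3.3, NumPy 2.4.6, Matplotlib 3.10.9 and statsmodels 0.14.6) was tested on simulated data.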

Additional observations from a re-analysis of the deposited data

How the results depend on the processing

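No paired analysis was possible because each group had 1 array. Among the NRF2 and antioxidant genes the counts lower (21) and higher (10) with let-7i were 15 to 21 and 9 to 11 under the other settings, and the median log2 ratio was between -0.11 and -0.06. The number of genes measured changed too. It was 24 without probe sets shared between transcripts, 28 with a floor at percentile 65, 32 with a floor at percentile 25 and otherwise 31. None of the NRF2 and antioxidant genes was past 2-fold, except that with a floor at the 25th percentile 1 was lower (ALDH3A1, at least 2.43-fold lower). That bound rests on signals below the median of each array, which may be background. At 1.5-fold 3 were lower (9.68%, against 5.93% of all genes). The count at least 1.2-fold lower (11) was 8 to 12, and that at least 1.2-fold higher (1, GPX2) was 0 with a floor at percentile 65. As reported, these were 35.5% and 3.23% of the measured genes, against 20.3% and 16.7% of all genes. Of the other pathway genes, 2 were at least 2-fold higher. That count was 0 with a floor at percentile 65, 1 with the mean of probe sets and 0 at 3-fold. At 1.5-fold it was 6 of 66, against 4.18% of all genes. The count of those lower was 1 with lowess centring, quantile normalization and floors at percentiles 25 and 65. At 1.5-fold it was 4 of 66, against 5.93% of all genes. Without probe sets shared between transcripts the median was 0.021 for the other pathway genes and 0.076 for the ATF4 list, with fewer genes left (50 and 12). In the ATF4 list 1 of 20 genes was higher and 1 lower at 1.5-fold, against 4.18% and 5.93% of all genes. Signal over background is known only through the floor, which limits the dim genes GPX2, GSTM3 and OSGIN1 most.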
